A study of Mus musculus with 12 samples.

Results

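The genes of the cornified envelope and of the filaggrin type are 10 mouse genes, Ivl, Lor, Flg, Flg2, Hrnr, Rptn, Tchh, Tgm1, Tgm3 and Casp14, that build or process the outermost layer of the epidermis. They were chosen by symbol for their known roles, and all 10 were found among the 50684 genes of the count table. All 10 passed the filter on low counts, and they were tested together with the other genes, 19408 in all. RNA-Seq was performed on ear tissue of female C57BL/6 mice, 8 weeks old, that were injected intradermally in the ear pinna. The 4 groups were PBS alone, 1 µg of IL-17A, 1 µg of IL-36γ, and IL-17A + IL-36γ (called the combination) with 1 µg of each cytokine per the labels, always in 5 µL of PBS. The study's methods give 1 µg of cytokine per ear, so that the sources differ on the total in the combination. Treatment was on consecutive days per the methods, and ears were collected after 4 days. Each group of the study held 5 mice, of which 3 were sequenced, so that the replicates are separate mice. A part of the ear was homogenized whole, so that RNA of the epidermis, dermis, hair follicles, muscle and immune cells was measured together.

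As keratinocytes move from the granular layer to the surface, they lay down an envelope of cross-linked protein beneath the plasma membrane and fill with keratin filaments bundled by filaggrin. Involucrin and loricrin are precursors of the envelope, and transglutaminases join them by bonds that proteases hardly open. The S100 fused-type proteins, of which filaggrin is the best known, carry a calcium-binding domain of the S100 type followed by long repeats, and their genes lie side by side with those of involucrin and loricrin in the epidermal differentiation complex. Caspase-14 takes part in the breakdown of filaggrin to the free amino acids that hold water in the skin. In psoriasis, a disease in which IL-17A and IL-36γ both act on keratinocytes, this late programme of differentiation is disturbed, and the comparison of the groups asks how each cytokine and their combination affected it in the ear.

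Libraries held between 25293468 and 34759293 counts, and the variation between mice of a group, as the biological coefficient of variation, was 14.2%. Levels are given as CPM, the count of a gene as a share of its library, after TMM scaling, a correction of library size, as mean ± SD of n = 3 mice. A gene was called when its log2 fold change exceeded 1 in either direction and its adjusted p was below 0.05 in the quasi-likelihood test of edgeR, with Benjamini-Hochberg adjustment over all 19408 genes. The tissue label was checked by its markers, of which the basal keratin gene Krt5 was measured at 2970 ± 408 CPM and the suprabasal keratin gene Krt10 at 6100 ± 1790 CPM after PBS. The summed level of the 4 suprabasal keratin genes (Krt1, Krt10, Krt2 and Krt77) lay between 16300 and 27000 CPM in PBS mice, 18500 and 28400 CPM in IL-17A mice, 28900 and 37700 CPM in IL-36γ mice and 25500 and 25800 CPM in combination mice. PBS replicate 1 stood apart, with 577 CPM of Flg against 124 and 154 CPM in the other PBS mice, and with 440 CPM of summed skeletal muscle genes against 3220 and 3700 CPM. IL-17A replicate 1 stood apart from the other IL-17A mice with the lowest Flg2 and the highest Rptn level of its group. In whole tissue, a change in the number of cells of a type and a change of RNA per cell cannot be told apart.

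In the genome (mm10, GENCODE vM21), 7 of the 10 genes lie on chromosome 3 within 1369 kb, in the order Lor (chr3:92080271-92083142, minus strand), Ivl (chr3:92570902-92573735, minus strand), Flg2 (chr3:93197278-93221391), Flg (chr3:93273523-93293686), Hrnr (chr3:93319749-93333570), Rptn (chr3:93393699-93399442) and Tchh (chr3:93442330-93449077), the last 5 on the plus strand. Flg2 and Flg, which moved in opposite directions, are 52.1 kb apart, and Flg and Hrnr are 26.1 kb apart. The genes of the enzymes lie elsewhere, Tgm1 on chromosome 14 (chr14:55700009-55713926, minus strand), Tgm3 on chromosome 2 (chr2:130012349-130050399, plus strand) and Casp14 on chromosome 10 (chr10:78711991-78718294, minus strand). All are annotated as protein-coding.

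The sequences upstream of the start sites are shown because genes of this one cluster differed in how they moved, and these are the 150 bases that end at the annotated start of each. They were taken from RefSeq (GRCm38.p6) and are written 5′ to 3′ on the strand of the gene. The windows are chr3:92573736-92573885 (minus strand), chr3:92083143-92083292 (minus strand), chr3:93273373-93273522, chr3:93197123-93197272, chr3:93393549-93393698 and chr3:93319599-93319748 (plus strand for the last 4). Capitals mark matches to TGANTCA, the letters of an AP-1-type site, which reads the same on both strands. That motif was chosen after the sequences were seen.
Ivl: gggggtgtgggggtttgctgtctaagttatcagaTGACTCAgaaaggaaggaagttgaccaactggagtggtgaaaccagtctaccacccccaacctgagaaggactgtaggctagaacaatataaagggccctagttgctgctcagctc
Lor: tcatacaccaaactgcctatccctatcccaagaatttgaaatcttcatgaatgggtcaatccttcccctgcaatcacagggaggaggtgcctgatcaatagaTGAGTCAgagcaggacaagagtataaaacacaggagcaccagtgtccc
Flg: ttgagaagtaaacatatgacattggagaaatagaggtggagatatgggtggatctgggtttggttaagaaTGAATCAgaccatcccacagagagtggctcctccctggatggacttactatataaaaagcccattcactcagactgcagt
Flg2: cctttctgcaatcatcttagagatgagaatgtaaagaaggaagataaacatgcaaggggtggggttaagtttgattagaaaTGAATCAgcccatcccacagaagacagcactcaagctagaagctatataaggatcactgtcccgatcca
Rptn: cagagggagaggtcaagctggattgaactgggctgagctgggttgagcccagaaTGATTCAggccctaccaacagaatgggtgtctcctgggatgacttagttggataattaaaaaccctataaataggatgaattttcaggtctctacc
Hrnr: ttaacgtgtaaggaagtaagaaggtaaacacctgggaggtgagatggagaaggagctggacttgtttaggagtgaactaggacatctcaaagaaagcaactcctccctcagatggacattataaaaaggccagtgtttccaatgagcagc

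The motif TGANTCA stood in the windows of 5 of the 9 genes with a window, Ivl, Lor, Flg, Flg2 and Rptn, and in 4.27% of 27018 promoters of the same length. Its first base lay 116, 48, 80, 69 and 96 bases before the start of Ivl, Lor, Flg, Flg2 and Rptn. Hrnr, Tchh, Tgm3 and Casp14 held no match within these bases. The letters TATAAA were sought on either strand and found in 6 of the 9 windows (Ivl, Lor, Flg, Hrnr, Rptn and Tgm3). All of these matches lay on the strand of the gene, between 27 and 31 bases before the start. On either strand and at any place in a window of this length, 8.08% of all promoters held a match. Tgm1 had no window, because its annotated start differs between RefSeq and GENCODE, and the window of Flg ends 23 bases before its RefSeq start. Flg and Flg2 shared the most similar stretch of the pairs compared, with 26 of 30 identical bases in the best ungapped blocks, all of which held the motif in both. Rises, falls and levels without a call were thus all seen among the genes with this motif, and a match of letters says nothing of a factor bound there.

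Of the 10 genes, 5 rose after the combination against PBS and 1 fell, where 7.35% of all genes tested rose and 6.06% fell. Rptn rose most, 23.3-fold, followed by Casp14 at 8.05-fold, Flg at 4.1-fold, Tgm3 at 3.6-fold and Ivl at 2.88-fold. Flg2 fell to 0.223 of its level after PBS, and Lor lay at 0.986 of that level. After IL-36γ alone, where 5.11% of all genes rose and 1.98% fell, Rptn rose 11-fold, Casp14 4.78-fold, Flg 3.73-fold, Tgm3 2.43-fold and Ivl 2.18-fold, and Tchh fell to 0.476 of its level after PBS. After IL-17A alone Casp14 rose 2.21-fold and Tchh fell to 0.471 of its level, and the other 8 genes were not called, where 1.07% of all genes rose and 1.03% fell.

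**Figure D1:**
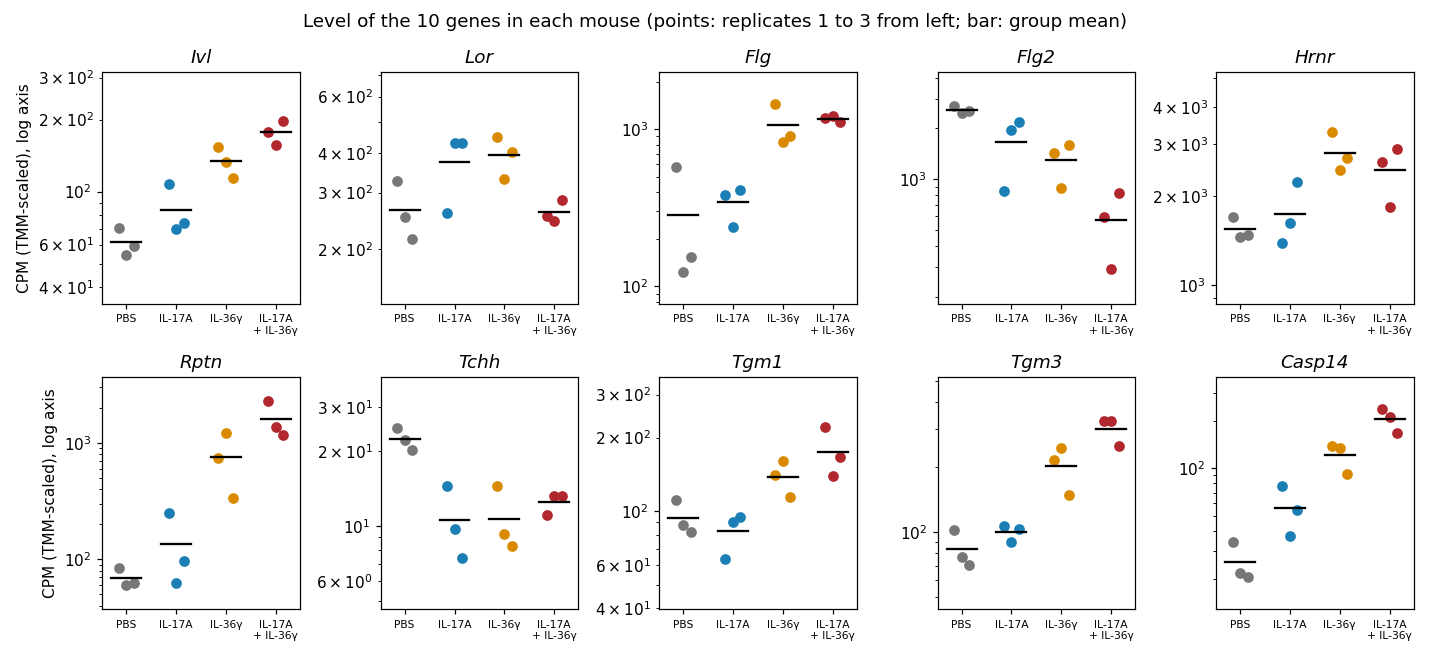
Level of each of the 10 genes in each mouse, in CPM after TMM scaling on a log axis that differs between panels, for PBS, IL-17A, IL-36γ and the combination. Points are replicates 1 to 3 from left and bars are group means. Rptn climbed from a mean of 69.2 to 1620 CPM between PBS and the combination, Flg2 went from 2560 to 571 CPM, and the means of Lor were 265 and 261 CPM.

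Ivl encodes involucrin, an early scaffold of the envelope to which other precursors are attached. Its levels were 70.7, 54.3 and 59.4 CPM after PBS and 108, 69.9 and 73.9 CPM after IL-17A in replicates 1 to 3. They were 154, 133 and 114 CPM after IL-36γ and 177, 156 and 198 CPM after the combination. All mice that had received IL-36γ, alone or combined, lay above all PBS and IL-17A mice, whereas the IL-17A mice overlapped with the PBS mice. Ivl rose after IL-36γ (log2 fold change 1.12 ± 0.17 SE, adjusted p = 0.000832) and after the combination (1.53 ± 0.17, adjusted p = 5.51e-05). After IL-17A the log2 fold change was 0.45 ± 0.17 (adjusted p = 0.0975). In the order PBS, IL-17A, IL-36γ, the combination no step between neighbours was called, and the last one was 0.40 with a 95% interval from 0.04 to 0.77.

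Lor encodes loricrin, the glycine-rich main component of the mature envelope. PBS mice held 327, 252 and 215 CPM, and IL-17A mice 259, 430 and 429 CPM. The values were 448, 331 and 403 CPM after IL-36γ and 253, 245 and 285 CPM after the combination. The IL-36γ mice lay above the PBS mice, while the combination mice lay within the range of the PBS mice and below all IL-36γ mice. Lor was not called in any of the comparisons. Against PBS the log2 fold change of IL-17A mice was 0.49 ± 0.20 SE (adjusted p = 0.115) and that of IL-36γ mice 0.57 ± 0.20 (adjusted p = 0.047, under the threshold of size). It was -0.02 ± 0.20 after the combination (adjusted p = 0.942). The last difference had a 95% interval from -0.45 to 0.41, so that a change of Lor by more than the threshold of size lay outside it in both directions.

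Flg encodes profilaggrin, the store of filaggrin in the keratohyalin granules. After PBS it was measured at 577, 124 and 154 CPM, and after IL-17A at 381, 238 and 408 CPM. IL-36γ mice held 1450, 833 and 900 CPM and combination mice 1180, 1210 and 1110 CPM. The groups with IL-36γ did not overlap with the others, and PBS replicate 1 lay above all IL-17A mice. Flg rose after IL-36γ (1.90 ± 0.48 SE, adjusted p = 0.0131) and after the combination (2.03 ± 0.48, adjusted p = 0.00515). The value after IL-17A, 0.26 ± 0.47 (adjusted p = 0.732), depended on PBS replicate 1, without which it was 1.3 (adjusted p = 0.00712), and it was -0.10 and -0.04 without PBS replicates 2 and 3. Without PBS replicate 1 the change was 2.94 after IL-36γ and 3.07 after the combination, the highest values with any single mouse left out. IL-36γ and the combination did not differ beyond their spread, at 0.14 with a 95% interval from -0.87 to 1.15.

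Flg2 encodes filaggrin-2, a relative of filaggrin of the same layer. Its levels of 2700, 2470 and 2530 CPM after PBS were the most even of the 10 genes in that group. IL-17A mice held 850, 1950 and 2170 CPM, IL-36γ mice 1430, 888 and 1590 CPM, and combination mice 594, 291 and 828 CPM. Every cytokine-treated mouse lay below every PBS mouse, and the combination mice lay below all others. Flg2 fell after the combination (-2.17 ± 0.39 SE, adjusted p = 0.000971). The values after IL-17A (-0.63 ± 0.38, adjusted p = 0.273) and after IL-36γ (-0.98 ± 0.38, adjusted p = 0.0708) were not called. Flg2 was also lower after the combination than after IL-17A (-1.54 ± 0.38, adjusted p = 0.0101), and the step from IL-36γ to the combination was -1.19 ± 0.38 (adjusted p = 0.195).

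Hrnr encodes hornerin, a further keratohyalin protein with filaggrin-like repeats. Levels were 1700, 1450 and 1470 CPM after PBS and 1380, 1620 and 2220 CPM after IL-17A. After IL-36γ they were 3280, 2440 and 2680 CPM, and after the combination 2610, 1830 and 2870 CPM. Both groups with IL-36γ lay above the PBS mice, and IL-17A mice spread around them. The log2 fold change was 0.86 ± 0.20 SE after IL-36γ (adjusted p = 0.00777) and 0.66 ± 0.20 after the combination (adjusted p = 0.0168), both under the threshold of size, and 0.17 ± 0.20 after IL-17A (adjusted p = 0.577). The means after IL-36γ and after the combination, 2800 ± 430 and 2440 ± 539 CPM, did not differ beyond their spread (-0.20 with a 95% interval from -0.62 to 0.23).

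Rptn encodes repetin, a precursor of the envelope that is made in the granular layer, hair follicle and tongue papillae. It was measured at 84.8, 59.9 and 63 CPM after PBS and at 249, 62.8 and 97.1 CPM after IL-17A. Levels were 739, 1210 and 334 CPM after IL-36γ and 2300, 1380 and 1170 CPM after the combination. Mice with IL-36γ lay above all mice without it, and replicate 2 of IL-36γ reached the range of the combination. Rptn rose after IL-36γ (3.46 ± 0.55 SE, adjusted p = 0.00105) and after the combination (4.54 ± 0.58, adjusted p = 0.000113), the largest changes of the 10 genes. The value after IL-17A, 0.98 ± 0.51 (adjusted p = 0.21), was 0.18 when IL-17A replicate 1 was left out. The step from IL-36γ to the combination was 1.09 with a 95% interval from -0.01 to 2.18 (adjusted p = 0.333).

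Tchh encodes trichohyalin, which hardens the inner root sheath and medulla of the hair. PBS mice held 24.7, 22 and 20.2 CPM, and IL-17A mice 14.4, 9.74 and 7.4 CPM. IL-36γ mice held 14.4, 9.26 and 8.26 CPM and combination mice 11, 13.1 and 13.2 CPM. All 3 groups with cytokine lay below the PBS mice and overlapped with each other. Tchh fell after IL-17A (-1.09 ± 0.23 SE, adjusted p = 0.0225) and after IL-36γ (-1.07 ± 0.23, adjusted p = 0.00603). After the combination the value was -0.85 ± 0.23 (adjusted p = 0.0114), under the threshold of size. Among the 3 cytokine groups the differences were between 0.02 and 0.24, none of them called, with 95% intervals that reached from -0.50 to 0.76.

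The keratins of the inner root sheath, the structure in which Tchh is best known, were read beside it. The summed level of the 7 genes Krt25, Krt26, Krt27, Krt28, Krt71, Krt72 and Krt73 lay between 16.4 and 24.9 CPM after PBS and between 3.28 and 11.6 CPM after the combination. It lay between 2.13 and 18.8 CPM after IL-17A and between 3.99 and 17.2 CPM after IL-36γ, so that these groups overlapped with PBS. None of the 6 genes tested (Krt72 did not pass the filter) was called in any comparison with PBS, and their median log2 fold change was -1.26, -1.35 and -1.70 after IL-17A, IL-36γ and the combination, against 0.04, -0.02 and -0.03 over all genes. Krt28 lay at -0.01, -0.04 and -0.25 in these comparisons. The part of these keratins in the change of Tchh was not tested.

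Tgm1 encodes transglutaminase 1, the enzyme that cross-links involucrin and lipids at the membrane. It was measured at 111, 87.7 and 82 CPM after PBS and 63.5, 89.8 and 94.6 CPM after IL-17A. Levels were 140, 160 and 114 CPM after IL-36γ and 221, 139 and 166 CPM after the combination. Both groups with IL-36γ lay above those without it, and overlapped with each other. The log2 fold change against PBS was 0.56 ± 0.20 SE after IL-36γ (adjusted p = 0.0497) and 0.91 ± 0.20 after the combination (adjusted p = 0.00302), both under the threshold of size. After IL-17A it was -0.18 ± 0.20 (adjusted p = 0.563), and the combination was higher than IL-17A by 1.09 ± 0.20 (adjusted p = 0.00197). Of the exons of Tgm1, 5.756% overlap the antisense gene Gm49067, and how strand was treated in counting is not given in the sources used here.

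Tgm3 encodes transglutaminase 3, which joins loricrin and small proline-rich proteins in the cytosol and also acts in the hair. PBS mice held 102, 76.8 and 70.7 CPM and IL-17A mice 107, 90.2 and 103 CPM. Higher levels were measured after IL-36γ, at 215, 243 and 149 CPM, and after the combination, at 324, 324 and 250 CPM. The groups with IL-36γ were separate from those without it and from each other. Tgm3 rose after IL-36γ (1.28 ± 0.18 SE, adjusted p = 0.000542) and after the combination (1.85 ± 0.18, adjusted p = 2.96e-05). After IL-17A the value was 0.27 ± 0.18 (adjusted p = 0.328), and the step from IL-36γ to the combination was 0.57 ± 0.18 (adjusted p = 0.192).

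Casp14 encodes caspase-14, a protease of cornifying keratinocytes that acts on filaggrin. Levels were 33.9, 21.8 and 20.5 CPM after PBS and 76.6, 37.2 and 54.6 CPM after IL-17A. They reached 138, 134 and 92.4 CPM after IL-36γ and 236, 210 and 168 CPM after the combination. The 4 groups did not overlap at any step of this order. Casp14 rose after IL-17A (1.14 ± 0.27 SE, adjusted p = 0.0265), after IL-36γ (2.26 ± 0.27, adjusted p = 0.000205) and after the combination (3.01 ± 0.28, adjusted p = 2.01e-05). It was the only one of the 10 genes called higher after every treatment. The difference between IL-36γ and IL-17A, 1.11 ± 0.26 (adjusted p = 0.0258), was called, and that between the combination and IL-36γ, 0.75 ± 0.26 (adjusted p = 0.214), was not.

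**Figure D2:**
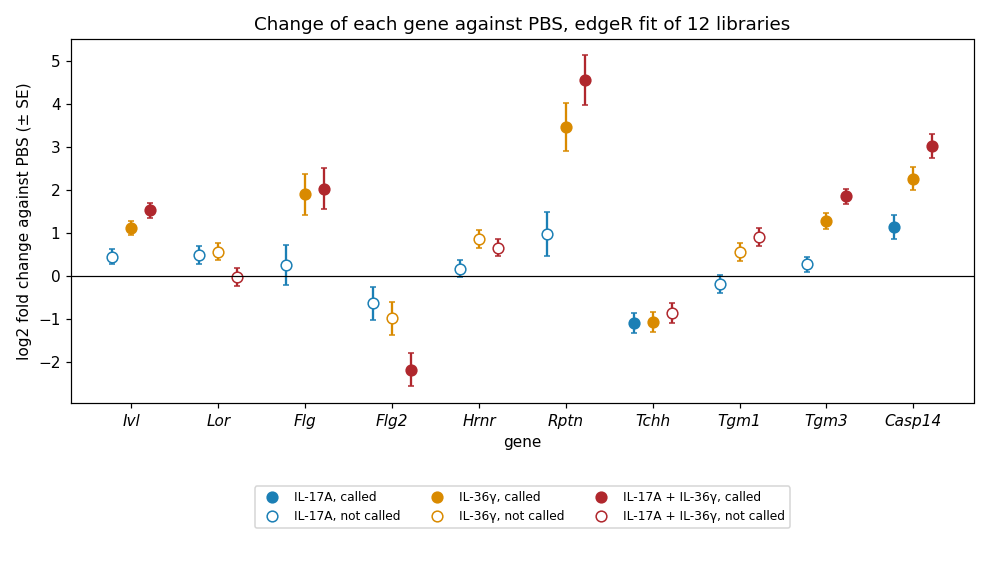
Log2 fold change against PBS (± SE) of the 10 genes after IL-17A, IL-36γ and the combination from 1 edgeR fit of the 12 libraries, with filled points for called changes. Rptn reached 4.54 after the combination, Flg2 fell to -2.17, Lor lay at -0.02, and the 3 comparisons share the PBS mice.

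In the comparison of IL-17A with PBS, 1 of the 10 genes rose and 1 fell, with 2.1% of all genes called in either direction. The libraries of both groups did not overlap for 3 of the 10 genes, against 33.6% of all genes. The median log2 fold change of the 10 was 0.27, against 0.04 over all genes. Both calls were lost when only the 2 groups compared were fitted (Casp14 adjusted p = 0.0846, Tchh adjusted p = 0.0749), and over single mice left out the count ranged from 0 to 3. Leaving out PBS replicate 2 or 3 ended both calls (Casp14 adjusted p = 0.0913 and 0.132, Tchh adjusted p = 0.0598 and 0.0911), leaving out IL-17A replicate 1 ended that of Casp14 (0.82, adjusted p = 0.136), and leaving out IL-17A replicate 2 or 3 ended that of Tchh (adjusted p = 0.0566, and -0.89).

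After IL-36γ, 5 of the 10 genes rose and 1 fell, with 7.1% of all genes called in either direction. No library of IL-36γ overlapped with PBS for 10 of the 10 genes, against 41.7% of all genes. The median was 0.99, against -0.02 over all genes, and 9 of the 10 genes had an adjusted p below 0.05, where 28.4% of all genes did. The call of Flg was lost when only PBS and IL-36γ were fitted (1.89, adjusted p = 0.052), without PBS replicate 3 (1.6, adjusted p = 0.0562) and without IL-36γ replicate 1 (1.59, adjusted p = 0.0536). With libraries scaled by their size only, Ivl had 0.97 and Flg2 was called at -1.13, and with scaling by 8 epithelial genes Ivl had 0.82, Tgm3 0.98 and Flg2 -1.29. Ivl (0.99 without IL-36γ replicate 1) and Tchh (-0.99, -0.98 and -0.92 without PBS replicate 1 and IL-36γ replicates 2 and 3) lay close to the threshold of size.

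After the combination, 5 of the 10 genes rose and 1 fell, with 13.4% of all genes called in either direction. The libraries did not overlap with PBS for 9 of the 10 genes (52.5% of all genes), Lor being the exception. The median was 1.22, against -0.03 over all genes, with a range from -2.17 to 4.54. These 6 calls were made in every alternative, and the count was 6 or 7 with any single mouse left out. Tgm1 crossed the threshold without PBS replicate 1 (1.05) or without combination replicate 2 (1.04), and Tchh did so with scaling by 8 epithelial genes (-1.20).

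The combination was compared with each cytokine alone to see what the second cytokine added. Against IL-17A, 6 of the 10 genes were higher (Ivl, Flg, Rptn, Tgm1, Tgm3 and Casp14) and Flg2 was lower, where 4.46% of all genes were higher, 4.49% lower and 8.95% called in either direction. The libraries of those groups did not overlap for 7 of the 10 genes, against 48.4% of all genes. Against IL-36γ, 0 of the 10 genes were called by edgeR, and 5 (Ivl, Lor, Flg2, Tgm3 and Casp14) had an unadjusted p below 0.05, where 15.1% of all genes did. DESeq2 also called 0 of the 10 there, and of all genes it called 62 higher and 89 lower. By edgeR 2 genes of all tested were called, which is 0.0103%. Among the alternatives Lor and Casp14 reached an adjusted p below 0.05, but stayed under the threshold of size. The libraries of the combination and IL-36γ did not overlap for 5 of the 10 genes, against 20.6% of all genes. Between the single cytokines, 3 genes (Rptn, Tgm3 and Casp14) were higher after IL-36γ than after IL-17A, where 1.25% of all genes were higher, 0.366% lower and 1.61% called in either direction. Flg, at 1.63 ± 0.48 SE (adjusted p = 0.056), was not called there, but was in 8 of 19 alternatives, over which its adjusted p ranged from 8.73e-05 (DESeq2) to 0.197. Tgm3 lost its call in 5 of the 19. There 7 of the 10 genes did not overlap between the groups, against 31.7% of all genes. The count of 3 genes called between the single cytokines ranged from 0 to 4 with single mice left out. It was 0 without IL-17A replicate 2 and without IL-36γ replicate 2, and 1 without IL-17A replicate 3 and without IL-36γ replicate 1. Against IL-17A the calls of Tgm1 (0.95 and 0.89 without IL-17A replicate 1 and combination replicate 1), Ivl (0.98 and 0.99 without IL-17A replicates 2 and 3) and Flg (adjusted p = 0.06 without IL-17A replicate 2) were lost with single mice left out, and those of Tgm1 and Ivl (both 0.92) with scaling by 8 epithelial genes.

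The interaction asks whether IL-17A acted differently with and without IL-36γ, and is the log2 difference between the combination and IL-36γ less that between IL-17A and PBS. By edgeR 0 of the 10 genes were called at an adjusted p below 0.05, where 0.551% of all genes were called (0.129% positive and 0.423% negative), and 2 of the 10 had an unadjusted p below 0.05, where 22.5% of all genes did. The value of Lor was -1.09 ± 0.28 SE (adjusted p = 0.071), with means of 372 CPM in IL-17A mice, 394 CPM in IL-36γ mice and 261 CPM in combination mice, and it was called without PBS replicate 1 (-1.27, adjusted p = 0.0253). That of Tchh was 1.31 ± 0.33 (adjusted p = 0.0696), its levels being alike after one or both cytokines. The other values ranged between -0.56 for Flg2 and 0.52 for Tgm1. DESeq2 called both Lor (-1.07, adjusted p = 0.0162) and Tchh (1.33, adjusted p = 0.00985), and so did edgeR without the filter on low counts (adjusted p = 0.0267 and 0.0239). Both settings called more genes of all tested, DESeq2 1061 positive and 1425 negative, and edgeR without the filter 167 and 295 of 34054.

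Levels of different genes are compared per length of exon, as CPM per kb. After PBS the order was led by Lor at 149 ± 32.3, Hrnr at 138 ± 12.3 and Flg2 at 123 ± 5.93 CPM per kb, which overlapped within their SD. Ivl (32), Tgm1 (29.6), Tgm3 (20.1), Rptn (16.7), Flg (15.1) and Casp14 (10.6) followed, and Tchh had the lowest level at 3.84 CPM per kb. Rptn (16.7 ± 3.27) and Flg (15.1 ± 13.5) overlapped within their SD, so that their places after PBS are not settled. The level of Flg was divided by the 18.829 kb of all its annotated exons, while its longest transcript has 14497 bases, and depends on that choice. After the combination, Rptn led at 390 ± 145 CPM per kb, followed by Hrnr at 218 ± 48.1 and Lor at 147 ± 11.8. Rptn thus went from the 7th to the 1st place and Flg2, at 27.5 ± 12.9, from the 3rd to the 9th. Flg, at 62 ± 2.88 CPM per kb, lay above Flg2 in that group and below it after PBS. After IL-17A alone the first 4 places (Lor, Hrnr, Flg2 and Ivl) were those of PBS.

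**Figure D3:**
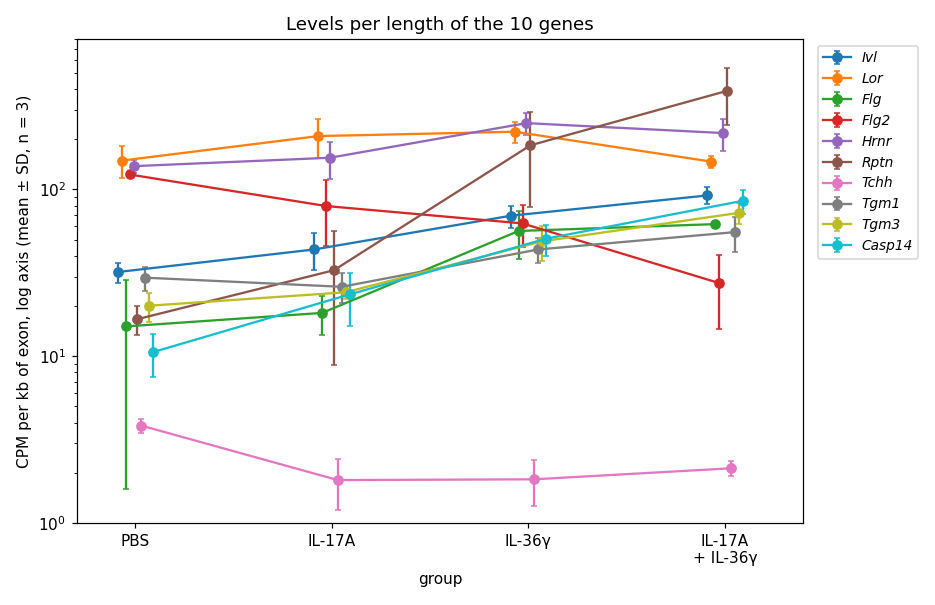
Level per length of the 10 genes in the 4 groups, in CPM per kb of exon on a log axis (mean ± SD, n = 3 mice). Lines join the means of a gene. Rptn goes from 16.7 to 390 and Flg2 from 123 to 27.5 CPM per kb between PBS and the combination, so that the order of the genes differs between these groups.

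The long repeats of the S100 fused-type genes bear on these levels. Of all stretches of 76 bases, the read length, 75.1% occurred more than once within the transcript of Flg, 68.1% in that of Hrnr and 60.1% in that of Flg2. The share was 5.1% for Tchh and 0 for the other 6 genes. No identical stretch of this length was shared between the longest transcripts of any of the 45 pairs of the 10 genes. Stretches with mismatches and genes outside the 10 were not compared. Whether reads of one gene were counted for another was thus not tested. Whether reads with several positions were counted is not given in the sources used here. If they were left out, the levels per length of Flg, Flg2 and Hrnr are too low against those of the other genes, while changes of one gene between groups keep their meaning.

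Ratios of 2 genes within a library do not depend on the scaling of libraries, and were compared by exact permutation tests (two-sided) over mice, whose smallest p is 0.1 with 3 against 3. The log2 ratio of Ivl to Lor, the scaffold against the main component, was -2.21, -2.21 and -1.85 after PBS and -0.52, -0.65 and -0.52 after the combination. The difference was 1.53 (exact p = 0.1, 0.15 after adjustment over the 9 tests), and it was 0.53 after IL-36γ and -0.05 after IL-17A. The combination mice lay above all other mice, and the IL-17A mice spread on both sides of the PBS mice. The ratio of Rptn to Flg differed by 2.11 after the combination (exact p = 0.1, adjusted 0.15) and by 1.08 after IL-36γ (exact p = 0.4, adjusted 0.514). The ratio of Tgm1 to Tgm3 was lower than in PBS mice in all treated mice, by 0.47, 0.71 and 0.96 in the order IL-17A, IL-36γ and the combination (exact p = 0.1 each, adjusted 0.15).

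The ratio of Flg to Flg2 was added after the values were seen and is given without a test. There were 0.214, 0.0502 and 0.061 counts of Flg per count of Flg2 in the PBS mice and 0.449, 0.122 and 0.189 in the IL-17A mice. In the IL-36γ mice there were 1.02, 0.939 and 0.566, and in the combination mice 1.99, 4.17 and 1.34. All combination mice lay above all IL-36γ mice, which lay above all mice without IL-36γ, and PBS replicate 1 lay within the IL-17A mice.

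**Figure D4:**
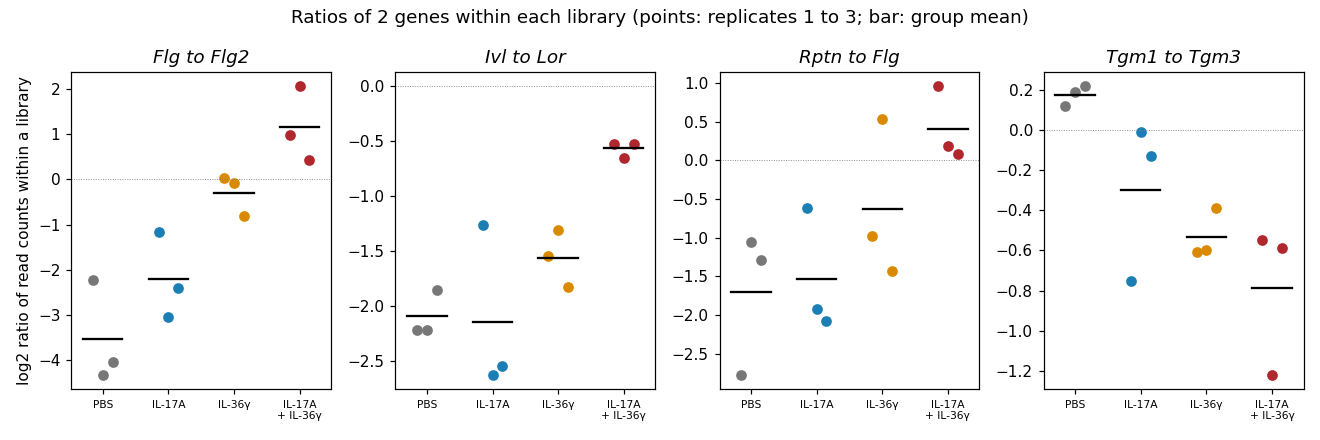
Log2 ratio of the read counts of 2 genes within each library, for Flg to Flg2, Ivl to Lor, Rptn to Flg and Tgm1 to Tgm3. Points are replicates 1 to 3 and bars are group means. Flg to Flg2 lies at 0.99, 2.06 and 0.42 in the combination mice against -2.23, -4.32 and -4.03 in the PBS mice, and Tgm1 to Tgm3 is lower in all treated mice than in all PBS mice.

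Over the 12 mice, the levels of Ivl, Flg, Rptn, Tgm1, Tgm3 and Casp14 ran in parallel. Among these 6 genes the Pearson correlation of log2 CPM lay between 0.758 (Ivl and Tgm1) and 0.978 (Rptn and Tgm3). The values of Hrnr with these 6 lay between 0.68 (Rptn) and 0.804 (Flg), and so overlapped with those among the 6. The values of Lor with these 6 lay between -0.111 (Rptn) and 0.245 (Flg). Flg2 ran opposite to Casp14 (-0.856) and Rptn (-0.853). These values describe 12 libraries in 4 groups, so that the differences between groups are part of them, and no p-value is given.

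The genes outside the 10 whose log2 CPM was most like that of each were read from the same 12 libraries. For Casp14 these were Klk13, a kallikrein (r = 0.997), Krt1, the keratin of the suprabasal layers (0.997), and Cotl1 (0.995). For Rptn they were Blmh (0.991), Klk6 (0.989) and Glrx (0.987), and for Ivl they were Hpx (0.993), Tbc1d14 (0.981) and Glrx (0.979). Flg2 was most like Lce1m, a gene of the late cornified envelope family (0.984), Cldn23 (0.983) and Tesc (0.981). Lor was most like Btg1 (0.909), Pepd (0.893) and Krt2, a keratin of the upper epidermis (0.883). Tchh was most like the hair keratin-associated genes Krtap21-1 (0.944), Krtap19-3 (0.911) and Krtap15 (0.91). For Tgm1 the closest was Alox12b, a lipoxygenase that makes lipids of the envelope (0.983), followed by Ptk6 (0.981) and Pld2 (0.975). Flg was nearest to Arhgef39 (0.973), Acad9 (0.97) and Qars (0.968), Hrnr to Minpp1 (0.951), Dync1li1 (0.95) and Sp6 (0.949), and Tgm3 to Tpp2, Cpox (both 0.989) and Ada (0.988).

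The other genes of the pathway were read from lists of known genes. Of 14 further genes of the envelope and granular layer, 13 were tested, and 1 of them rose after the combination, a share close to the 7.35% of all genes that rose. That gene was Cnfn, cornifelin of the envelope, with means of 19.5 CPM in PBS mice and 108 CPM in combination mice (2.47 ± 0.27 SE, adjusted p = 5.01e-05), and it also rose after IL-36γ (1.67 ± 0.27, adjusted p = 0.00109). The median of the list after the combination was 0.36, and that of all genes -0.03. None of the list fell, and none was called after IL-17A. With single mice left out the count after the combination reached 3 (without PBS replicate 1 or combination replicate 3) or 2 (without IL-36γ replicate 3 or combination replicate 2). After IL-36γ it reached 3 without PBS replicate 1 and 2 without IL-36γ replicate 3.

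Of 14 genes of the processing and breakdown of filaggrin, 3 rose after the combination and none fell, where 7.35% of all genes rose and 6.06% fell. Blmh, bleomycin hydrolase, which completes the breakdown of filaggrin to amino acids, had means of 162 CPM in PBS mice and 614 CPM in combination mice (1.92 ± 0.18 SE, adjusted p = 2.1e-05). Klk14, a kallikrein of the stratum corneum, rose by 3.91 ± 0.60 (adjusted p = 0.000344) from a level of at most 0.111 CPM after PBS, so that its size rests on few counts. The third, Padi1, a deiminase that acts on filaggrin and keratins and was named after its values were seen, rose by 1.89 ± 0.39 (adjusted p = 0.00236). After IL-36γ Klk14 (2.26), Blmh (1.43) and Padi1 (1.26) rose, and none of the 14 was called after IL-17A. The count was 5 after the combination without PBS replicate 1 or combination replicate 2, and 1 after IL-36γ without PBS replicate 2, PBS replicate 3 or IL-36γ replicate 1. The median of the list was 0.59 after the combination and 0.46 after IL-36γ, and those of all genes were -0.03 and -0.02.

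Of 13 transcriptional regulators of epidermal differentiation, among them Klf4, Grhl3, Ovol1 and Zfp750, none was called against PBS after IL-17A, IL-36γ or the combination. The medians of the list were 0.12, 0.27 and 0.04, against 0.04, -0.02 and -0.03 over all genes. Of all genes, 2.1%, 7.1% and 13.4% were called in these comparisons. Some regulators rose with an adjusted p below 0.05 in the edgeR test, but under the threshold of size. With IL-36γ alone these were Zfp750 (0.54, adjusted p = 0.00661) and Ovol1 (0.63, adjusted p = 0.0278). With both cytokines they were Zfp750 (0.56, adjusted p = 0.00275), Grhl3 (0.48, adjusted p = 0.0144) and Ovol1 (0.55, adjusted p = 0.0341).

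**Figure D5:**
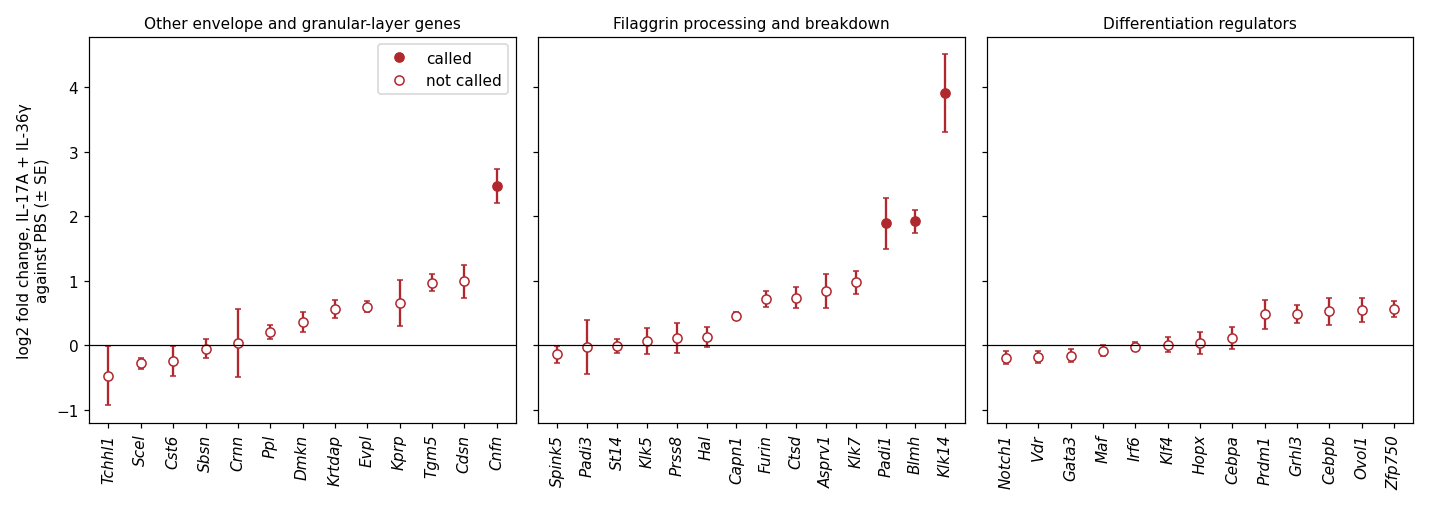
Log2 fold change after the combination against PBS (± SE) of the genes of 3 lists, other envelope and granular-layer genes, filaggrin processing and differentiation regulators, with filled points for called changes. The filled points are Cnfn at 2.47 and Padi1, Blmh and Klk14 at 1.89, 1.92 and 3.91, and no regulator is filled.

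Marker genes of the epidermal layers and of other cell types were read beside these genes. Of the suprabasal keratin genes Krt1 rose after the combination (4.21 ± 0.43 SE, adjusted p = 3.1e-05), from a mean of 392 to 7250 CPM, and the other 3 were not called. Among 6 basal genes Krt14 rose (1.38 ± 0.18, adjusted p = 0.000139) and Krt15 fell (-1.18 ± 0.15, adjusted p = 0.000106), and 3 of the 4 stress keratin genes rose, with Krt6b at 7.20 and Krt16 at 5.85. The summed level of 8 epithelial genes lay between 11500 and 14000 CPM after PBS and between 19600 and 24000 CPM after the combination. Most of this difference lay in Krt14 (means of 3990 and 10400 CPM) and Krt5 (2970 and 5440 CPM). The median log2 fold change of the 8 was 0.11, with Krt14 the 1 gene called, and means of Dsp (4040 and 4380 CPM), Cdh1 (302 and 317 CPM) and Trp63 (327 and 307 CPM) were close in both groups. All 5 neutrophil genes rose after the combination, among them Mmp8 (4.72) and Ly6g, which had no counts in the PBS mice and lay between 0.549 and 0.858 CPM after the combination. All 5 also rose after IL-36γ, and 3 of them after IL-17A. Their summed level lay between 7.49 and 12.1 CPM in PBS mice, 19.7 and 51.8 CPM in IL-17A mice, 54 and 75.8 CPM in IL-36γ mice and 89.6 and 182 CPM in combination mice. Of 5 macrophage genes 4 rose after IL-36γ, 3 after the combination, led by Adgre1 (1.82) and Mrc1 (1.10), and none was called after IL-17A. Their summed level lay between 442 and 508 CPM in PBS mice, 647 and 869 CPM in IL-17A mice, 1000 and 1090 CPM in IL-36γ mice and 888 and 1010 CPM in combination mice. After the combination 0 of 5 fibroblast genes were called, and 3 of 10 skeletal muscle genes fell, with Actn3 at -2.40 and Atp2a1 at -1.90, where 6.06% of all genes fell. The summed level of the muscle genes lay between 440 and 3700 CPM in PBS mice and between 271 and 1420 CPM in combination mice, so that these groups overlapped. The part of these shifts in the changes of the 10 genes was not tested.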

How the data were processed

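RNA-Seq libraries of ears of 12 mice, 3 in each of 4 groups, were prepared with a stranded total RNA kit and read as pairs of 76 bases. Alignment to mm10 was done by the authors with STAR 2.5.2b, and they deposited the counts per Ensembl gene from featureCounts (Subread 1.5.1), without normalization. Annotation release, strand setting and treatment of reads with several positions are not given in the sources used here. The authors' tables of comparisons (fold changes and p-values of DESeq2 1.30.0) were used for gene symbols only.

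Groups were taken from the sample labels. The counts were analysed in R 4.3.3 with edgeR 4.0.16. The filter on low counts was filterByExpr (minimum count 10), the scaling was TMM, and the quasi-likelihood test was applied to the 4 group means in 1 fit of all libraries, with Benjamini-Hochberg adjustment over 19408 genes. Calls required a log2 fold change above 1 in either direction with an adjusted p below 0.05, and for the interaction the adjusted p alone. Ratios within a library used counts plus 0.5. Exon lengths come from GENCODE vM21. On simulated data, 200 of 19408 genes were changed by a log2 value of 2, with as many rises as falls. They were drawn from genes above a minimum expected count, and were fewer than the 2603 genes called after the combination. For IL-17A + IL-36γ (the combination) against PBS 98.5% were recovered, with 4 unchanged genes called. For the interaction 95.5% were recovered, with 7 unchanged genes called. Recovery of smaller changes, such as the interaction values of the 10 genes, was not tested. Replicates differed beyond sampling noise (chi-square per gene 7.09 to 64 over 12 pairs), so none was deposited as a copy.

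The 10 genes and the gene lists were chosen with earlier results of these data known. Named were the 10 genes, up to 2 called genes of each list with the largest rise and fall after the combination, and the 3 genes most correlated with each of the 10. Krt5, Krt10, Padi1, Dsp, Cdh1, Trp63, Klf4, Grhl3, Ovol1, Zfp750, Cdsn, Tgm5, Klk7, Asprv1 and the keratin genes of the inner root sheath are named beyond this rule, with their values already known. The alternatives were DESeq2-type size factors, library size only or 8 epithelial genes (Krt5, Krt14, Cdh1, Dsp, Trp63, Esrp1, Grhl2 and Jup) as the scaling, no filter, only the 2 groups compared, no threshold of size, the replicate number as a block, the likelihood ratio test of DESeq2 1.42.0, each mouse left out in turn, and 5 added counts for ratios. Protein sequences and measurements other than RNA-Seq were not analysed here, and 1 gene of the list of regulators is not reported here.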

Additional observations from a re-analysis of the deposited data

How the results depend on the processing

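Over the alternatives for the single genes, leaving out that without a threshold of size, 1228 values kept their direction and their side of the thresholds. In the same alternatives 40 values lost and 21 gained a call, and 31 uncalled values changed sign. The count for IL-17A against PBS, 2 as reported, was 1 with library size only and with scaling by 8 epithelial genes and 0 with only the 2 groups compared. The count for IL-36γ against IL-17A, 3 as reported, was 5 without a threshold of size, where 7.98% of all genes were called. The interaction count, 0 as reported, was 2 without the filter and with DESeq2. Of all genes, the interaction was called positive for 167 and negative for 295 without the filter, and for 1061 and 1425 with DESeq2. The causes of the differences between these counts were not tested apart from the construction of each alternative. With each mouse left out in turn, the count ranged from 0 to 3 (IL-17A against PBS), 4 to 6 (IL-36γ against PBS), 6 to 7 (combination against PBS), 5 to 7 (combination against IL-17A), 0 to 0 (combination against IL-36γ), 0 to 4 (IL-36γ against IL-17A) and 0 to 1 (interaction). Signs changed with library size only for the interactions of Ivl (0.14) and Flg (0.03), and with scaling by 8 epithelial genes for the interaction of Ivl (0.10), Hrnr after IL-17A (-0.03) and, for IL-36γ against IL-17A, Lor (-0.03) and Tchh (-0.10). With single mice left out, the values that changed sign ranged from -0.10 to 1.3 (Flg, IL-17A against PBS), -0.04 to 0.28 (Hrnr, IL-17A against PBS), -0.14 to 0.16 (Lor, combination against PBS), -0.01 to 0.44 (Flg, combination against IL-36γ), -0.11 to 0.21 and -0.25 to 0.32 (Lor and Tchh, IL-36γ against IL-17A), -0.24 to 0.92, -0.16 to 0.22 and -1.17 to 0.25 (interactions of Rptn, Ivl and Flg), and -0.49 to 0.20 and -0.37 to 0.49 (ratios of Ivl to Lor and Rptn to Flg after IL-17A).

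The replicate number does not mark a shared animal or day in the labels. The deviations of same-numbered mice of different groups were correlated above 0.1 in 9 of 18 pairs (-0.199 to 0.352, median 0.097), and those of differently numbered mice in 9 of 36 (median -0.0502). Since not every same-numbered pair was above 0.1, the numbers were not taken as pairs. That rule cannot exclude a shared day, which need not bring every pair above 0.1. Of 12 libraries, 8 were closest to their own number, a hint of pairing from the data and not from the design. With the replicate number as a block, the counts were 2, 7 and 6 against PBS for IL-17A, IL-36γ and the combination, 7 for the combination against IL-17A, 0 against IL-36γ, 3 for IL-36γ against IL-17A (Flg gained a call at 1.59, adjusted p = 0.0302, and Tgm3 lost it at 0.99) and 1 for the interaction (Tchh, 1.40, adjusted p = 0.0317). Of all 19408 genes, 391 had a positive and 492 a negative interaction with the block.

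Scaling moved the level of all genes. Their median log2 fold change against PBS was -0.13, -0.16 and -0.17 with library size only and -0.16, -0.32 and -0.39 with 8 epithelial genes, against 0.04, -0.02 and -0.03 with TMM. Some of the 8 scaling genes were themselves higher after the combination with TMM, namely Krt14 (1.38), Krt5 (0.87) and Jup (0.53), each with an adjusted p below 0.05 in the edgeR test. The others lay between -0.09 (Trp63) and 0.12 (Dsp), and the part of each gene in this scaling was not tested. For the combination, 1426 genes rose and 1177 fell as reported, 1204 and 1667 with library size only, and 935 and 2781 with epithelial scaling. For IL-36γ the numbers were 992 and 385, 822 and 698, and 657 and 1320, and for IL-17A they were 208 and 199, 129 and 469, and 95 and 462. With epithelial scaling 600 genes were higher and 1266 lower in the combination than after IL-17A (865 and 872 as reported), and 177 higher and 128 lower after IL-36γ than after IL-17A (242 and 71 as reported). With only the 2 groups compared, 9 genes rose and 0 fell after IL-17A, and DESeq2 called 223 and 460. Between IL-36γ and IL-17A DESeq2 called 370 and 139. The combination against IL-36γ gave 0 higher and 2 lower as reported, 18 and 64 without the filter, 62 and 89 with DESeq2, and 0 and 0 with library size only, epithelial scaling, only the 2 groups compared and the block. The interaction gave 25 positive and 82 negative as reported, 8 and 30 with DESeq2-type size factors, 1 and 2 with library size only, 0 and 0 with epithelial scaling, 167 and 295 without the filter, 391 and 492 with the block and 1061 and 1425 with DESeq2. With 3 mice a group, a step such as that of Rptn from IL-36γ to the combination had a 95% interval from -0.01 to 2.18. Every library held at least 184 counts of each of the 10 genes, and counting error was not separated from the spread between mice.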

Other observations

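The 10 genes together took a small share of each library. It lay between 0.509% and 0.596% of all counts in the PBS mice, 0.323% and 0.556% in the IL-17A mice, 0.631% and 0.746% in the IL-36γ mice and 0.572% and 0.763% in the combination mice. Within the sum of the 10 levels per length, Lor, Hrnr and Flg2 made up 27.5% ± 2.22, 25.8% ± 1.62 and 23.2% ± 2.35 after PBS (mean ± SD, n = 3). After the combination Rptn made up 33.2% ± 7.37, Hrnr 19% ± 4.01, Lor 13% ± 2.23 and Flg2 2.39% ± 1.17. The share of Rptn was 3.09% ± 0.175 after PBS, 5.73% ± 4.92 after IL-17A and 18.1% ± 9.70 after IL-36γ, with a wider spread in both cytokine groups than in the PBS mice. Casp14, the protease, went from 1.95% ± 0.254 after PBS to 7.47% ± 1.14 after the combination, and Tgm1 from 5.5% ± 0.109 to 4.78% ± 0.386. These shares sum to 100 within a library, so that the share of one gene is bound to that of the others.

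Several genes of the pathway lists had an adjusted p below 0.05 in the edgeR test but stayed under the threshold of size after the combination, and were named after their values were seen. Cdsn, corneodesmosin of the junctions that hold the horny layer together, had 229 ± 64.2 CPM after PBS and 455 ± 128 CPM after the combination (log2 fold change 0.99, adjusted p = 0.00673). Tgm5, another transglutaminase of the epidermis, had 40.8 ± 8.94 and 80.2 ± 5.5 CPM (0.97, adjusted p = 0.000138). Klk7, a chymotrypsin-like kallikrein of desquamation, had 379 ± 82.3 and 745 ± 144 CPM (0.98, adjusted p = 0.00121). Asprv1, an aspartic protease that cuts profilaggrin, had 671 ± 194 CPM in PBS mice, 1260 ± 344 CPM in IL-36γ mice and 1200 ± 326 CPM in combination mice (0.84, adjusted p = 0.0196 for the last). Without a threshold of size, 6 of the 13 envelope genes (5 higher and 1 lower) and 8 of the 14 filaggrin processing genes (all higher) were called after the combination, where 44.6% of all genes were called (23.7% higher and 20.9% lower).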
